A study of Mus musculus with 23 samples.

Results

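The regions described here are the distal peaks of open chromatin that were found in 3T3-L1 cells on day -2 and had no counterpart on day -1 or day 0. Of the 84019 peaks in the day -2 table, 51461 met the rule, or 61.2%. A peak had to lack a gene name from the authors, lie outside the mitochondrial genome, and overlap by no base any peak in the tables of the later days. The peaks were thus chosen by their presence on each day, so the absence from days -1 and 0 is how the peaks were chosen and is not a finding. Day -2 counts and differences between siRNA arms were not used. Day -2 peaks have no counts in the tables of the other days, so a region without a peak there is not shown to be closed. Coordinates are those of the deposited tables, on GRCm38 per the submitters' processing notes, and the first base of a start may be numbered 0 or 1, since the sources used here do not say which.

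3T3-L1 is an established mouse preadipocyte line that turns into fat cells after confluence and a hormone mixture. Chromatin was read by ATAC-seq, where a transposase cuts accessible DNA and the cut ends are sequenced. The cells were transfected at sub-confluence on day -3 with 50 nM Kdm5c siRNA or 50 nM non-targeting (scramble) siRNA, using Lipofectamine RNAiMAX in both arms. Nuclei were taken 24 hours later for day -2, 48 hours later for day -1 and 72 hours later for day 0. There were 4 libraries per arm on each day, except 3 for Kdm5c siRNA on day 0. All counts and arm comparisons below come from the 8 libraries of day -2, with 4 of Kdm5c siRNA and 4 of scramble siRNA. The labels do not say whether replicates were separate cultures, so p-values measure the spread between these libraries, which may be technical.

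Accessible sites away from promoters include enhancers, where transcription factors bind and act on genes that may be far away. Such sites differ between cell states more than promoters do, and AP-1 factors of the Fos and Jun families are common occupants of them in fibroblasts. Kdm5c is a histone demethylase that acts on methylated lysine 4 of histone H3, a mark found at promoters and enhancers.

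Peak numbers and depth differed between days. The peak tables held 84019 peaks on day -2, 31970 on day -1 and 37054 on day 0. A day -2 library had 1816082 to 3345583 nuclear counts, a day -1 library 781309 to 1446979 and a day 0 library 1088968 to 2525925. These are sums over each day's own peaks, so a day with fewer peaks has fewer counts to sum. With mitochondrial peaks included the order was another one, at 4474964 to 12222886 counts for day -2, 9202281 to 14913397 for day -1 and 8166766 to 12814609 for day 0. The part of depth in the absence of a peak on the later days was not tested. A normalised count, as used below, is the raw count divided by the library's relative size after TMM scaling, which sets the bulk of peaks to no average change. Peaks that the authors gave a gene, most of them at promoters, are called gene-named. Of 14 preadipocyte and fibroblast markers, 10 had a gene-named peak on day -2, among them Pdgfrb, Col1a2, Twist1 and Dlk1, and Dcn, Fn1, Lum and Pdgfra had none. Of 8 macrophage markers, only Csf1r and Lyz2 had one, and their summed normalised counts were 753 to 1116 with Kdm5c siRNA and 817 to 894 with scramble siRNA. Lyz2 made up most of that, with 919 ± 159.5 with Kdm5c siRNA and 835 ± 31.2 with scramble siRNA (SD, n = 4 each) over 2 peaks, both in a stretch of chromosome 10 with high counts that is described further on. Csf1r had 21.8 ± 4.47 with Kdm5c siRNA and 15.9 ± 3.31 with scramble siRNA (SD, n = 4 each). Sums for fibroblast markers were 615 to 730.03 with Kdm5c siRNA and 623 to 717 with scramble siRNA. Gene-named peaks were present for 3 of 8 endothelial, 1 of 8 epithelial, 2 of 8 neuronal and 3 of 8 muscle markers. The present ones were Cdh5, Kdr and Sox17 for endothelium, Krt8 for epithelium, Tubb3 and Map2 for neurons, and Myod1, Myog and Des for muscle. Mean counts with Kdm5c siRNA and scramble siRNA were 45.5 and 39.1 for Kdr, and 41.7 and 43.7 for Map2. These were above the fibroblast markers Thy1 (8.98 and 8.84) and Prrx1 (7.72 and 13.9), and below Pdgfrb (59.97 and 64.4). Ptprc, Spi1, Pecam1, Epcam and Pax7 had none.

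Some of these peaks cover a transcription start even though the authors' tables gave them no gene. RefSeq windows of 250 bases before to 50 bases after a start (GRCm38.p6) were overlapped by 515 of the day -2-only distal peaks, or 1.02%. The share was 7.63% of the distal peaks shared with a later day and 66.0% of the gene-named peaks. The rule left out gene-named peaks, so the contrast with them is in part how the peaks were chosen. The 4 windows printed are those of named coding genes whose day -2-only peak had the highest mean count. Cacnb3 encodes a subunit of voltage-gated calcium channels, Furin a protease that matures secreted proteins, Csrnp1 a nuclear protein induced by Axin, and Dclk1 a kinase that binds microtubules. All are in the direction of transcription from 5′ to 3′. Capitals mark TGANTCA, the AP-1 letters, or GGGCGG, the GC box, on either strand.
Cacnb3: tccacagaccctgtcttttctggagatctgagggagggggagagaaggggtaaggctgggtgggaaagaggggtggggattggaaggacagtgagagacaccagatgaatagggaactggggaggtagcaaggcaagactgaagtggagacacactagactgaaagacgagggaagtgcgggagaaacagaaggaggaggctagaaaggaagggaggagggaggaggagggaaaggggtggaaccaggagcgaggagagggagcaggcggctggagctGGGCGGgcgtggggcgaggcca
Furin: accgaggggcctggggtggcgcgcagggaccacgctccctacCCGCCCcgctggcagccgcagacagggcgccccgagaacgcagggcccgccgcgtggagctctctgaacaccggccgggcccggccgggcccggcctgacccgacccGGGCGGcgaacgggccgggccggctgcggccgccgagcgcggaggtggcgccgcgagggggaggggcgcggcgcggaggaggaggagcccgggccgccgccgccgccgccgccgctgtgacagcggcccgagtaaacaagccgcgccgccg
Csrnp1: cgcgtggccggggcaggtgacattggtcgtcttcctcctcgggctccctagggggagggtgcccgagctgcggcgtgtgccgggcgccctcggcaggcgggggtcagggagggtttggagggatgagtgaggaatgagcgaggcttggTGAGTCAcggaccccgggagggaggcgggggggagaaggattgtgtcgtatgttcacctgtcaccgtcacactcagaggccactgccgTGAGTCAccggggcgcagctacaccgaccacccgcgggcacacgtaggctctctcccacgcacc
Dclk1: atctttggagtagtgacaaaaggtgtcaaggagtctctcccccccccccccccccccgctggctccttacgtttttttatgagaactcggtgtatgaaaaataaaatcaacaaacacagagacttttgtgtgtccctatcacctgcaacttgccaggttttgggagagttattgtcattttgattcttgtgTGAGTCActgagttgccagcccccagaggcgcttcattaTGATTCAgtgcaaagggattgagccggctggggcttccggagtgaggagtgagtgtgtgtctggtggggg

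The windows differ in base composition and in the share of each that the peak covers. The Csrnp1 window, chr9:119982974-119983273 on the minus strand, lay wholly inside the peak 9:119982968-119983383 and held 2 AP-1 matches. The Dclk1 window, chr3:55461478-55461777 on the plus strand, also held 2 AP-1 matches, and 96 of its bases were in the peak 3:55461681-55462181. The first match as printed lies outside those bases and the second inside them. The Furin window, chr7:80402763-80403062 on the minus strand, held 51 CpG pairs and 2 GC boxes, and 71 bases were in the peak 7:80402322-80402833. Both GC boxes lie outside those 71 bases. The Cacnb3 window, chr15:98632078-98632377 on the plus strand, held 7 CpG pairs and 1 GC box, and 102 bases were in the peak 15:98632275-98632512. That GC box lies inside the 102 bases. All 4 peaks lie inside the span of their gene. Normalised counts at the Csrnp1 peak were 34.7, 43.0, 34.4 and 35.9 with Kdm5c siRNA, against 31.6, 45.9, 20.7 and 41.8 with scramble siRNA. The arms overlapped at Csrnp1 and at the other three peaks, with log2 fold changes of 0.09 (SE 0.26) at Csrnp1, -0.08 (SE 0.24) at Cacnb3, -0.22 (SE 0.26) at Furin and -0.52 (SE 0.28) at Dclk1. The Dclk1 value was -0.27 without Kdm5c siRNA replicate 2, a library that stood apart.

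Promoter windows reached only by day -2-only distal peaks were poorer in CpG than those of gene-named peaks. There were 543 such windows, of which 299 (55.1%) belonged to long noncoding RNA genes. That share was 48.5% in windows with no peak and 35.3% in all windows. It was 29.3% in windows with a shared distal peak and 9.29% in windows with a gene-named peak. The median of the 543 windows was 7 CpG pairs, against 18 in windows with a shared distal peak and 23 in windows with a gene-named peak. It was 4 in windows with no peak and 7 over all windows. The AP-1 letters occurred in 68 of the 543 windows (12.5%), in 9.65% of the windows with a shared distal peak, in 4.21% of those with a gene-named peak, in 9.36% of those with no peak and in 7.81% of all 32851 windows. The GC box occurred in 32.8% of the 543, against 35.7% of all windows. The CCAAT box (CCAAT) occurred in 31.5%, against 37.4% of all. A TEAD core (GGAATG) occurred in 17.5%, against 14.7%, and an ETS core (CCGGAAG) in 6.26%, against 8.86%. In windows with no peak the motifs from GC box to ETS core occurred in 15.8%, 37.3%, 16.5% and 2.88%, in that order. In windows with a gene-named peak they occurred in 70.8%, 38.3%, 10.8% and 20.3%. Both strands were searched, none of the 5 motifs contains another, and a match describes letters, not a bound site. Of 1005 microRNA hairpins in RefSeq, 2 were overlapped by day -2-only distal peaks, 1 by shared distal peaks and 86 by gene-named peaks.

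The day -2-only distal peaks were short and held few counts. Their median width was 161 bases (quartiles 130 and 215, range 79 to 3529), against 396 bases in the 20290 shared distal peaks and 649 bases in the 12265 gene-named nuclear peaks. Only 1.77% were wider than 500 bases, against 35.7% of shared distal and 62.5% of gene-named peaks. Their mean normalised count over the 8 libraries had a median of 8.63 (quartiles 6.79 and 11.9), against 30.3 and 54.2 in those classes. Per kb of width the classes were closer, with medians of 55.3, against 80.6 in shared distal and 84.1 in gene-named peaks. The mean was under 10 at 32566 of the day -2-only peaks, or 63.3%. Among scramble libraries the median coefficient of variation of a day -2-only peak was 0.505, where counting error alone would give 0.348. It was 0.242 in shared distal peaks, where counting error would give 0.180, and 0.194 in gene-named peaks, where it would give 0.137.

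**Figure D1:**
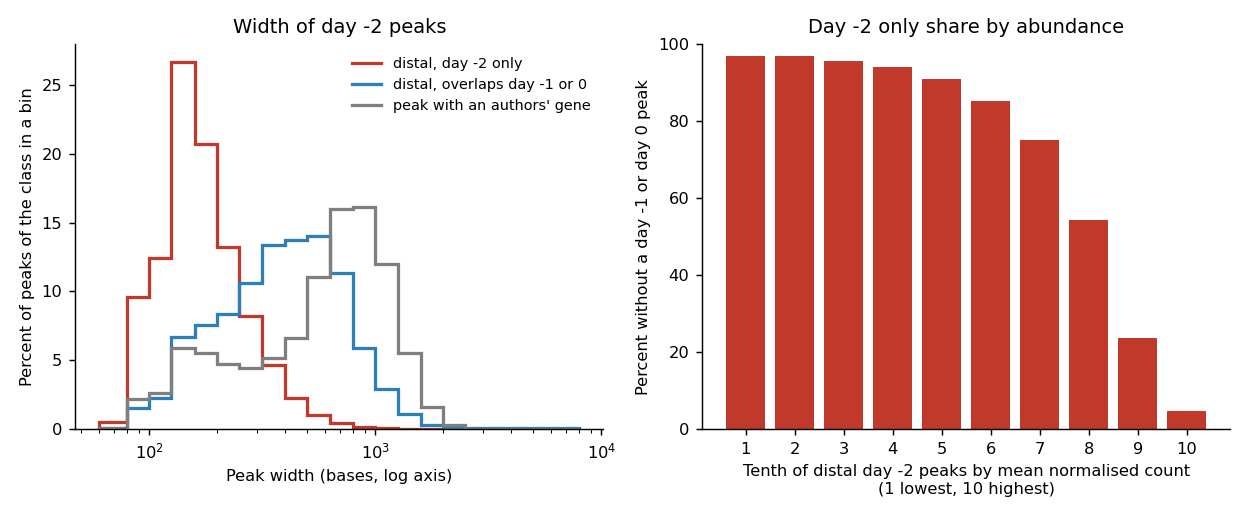
The left plot shows the percent of peaks in each width bin (bases, log axis) for day -2-only distal, shared distal and gene-named peaks of day -2. The right plot shows, for 10 equal groups of the 71751 distal peaks ranked by mean normalised count, the percent without a day -1 or day 0 peak, which is 96.9% in the lowest group and 4.66% in the highest.

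Day -2-only peaks made up most of the distal peaks at low abundance and few at high abundance. Of the 71751 distal nuclear peaks, 71.7% were day -2-only. With all of them split into 10 equal groups by mean normalised count, the share was 96.9% in the lowest group, 91.02% in group 5, 54.3% in group 8 and 4.66% in the highest. Of the 12265 gene-named peaks, 2500 (20.4%) had no peak on the later days. The median distance from a day -2-only peak to the nearest peak of a later day was 9752.5 bases, and 3636 (7.07%) had one within 500 bases. At the edge of the rule, a peak in Mmp28 (11:83455869-83456030), a peak in Alcam (16:52418090-52418237) and a peak in Akap8l (17:32333541-32333650) abutted a later peak without sharing a base, with mean normalised counts of 11.3, 11.5 and 8.16. Just outside, peaks in Nav1 (1:135545029-135545237), Ltc4s (11:50237742-50237855) and Kdm6b (11:69411752-69411846) shared 1 base with one, and had 12.9, 7.92 and 15.7.

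Nearly all of these peaks lay away from gene starts, in gene bodies or between genes. The rule left out the gene-named peaks, most of which lie at promoters. The distance from gene starts, and the contrast with gene-named peaks, are thus in part how the peaks were chosen. A coding gene held 50.9% of them at over 1 kb from its ends, against 45.4% of shared distal peaks. A further 4.88% were within 1 kb of a gene end, against 8.21% of shared distal and 88.5% of gene-named peaks. Outside genes, 10.6% lay within 10 kb of one, 24.1% at 10 to 100 kb and 9.42% beyond 100 kb. The median distance to a RefSeq transcription start was 21745 bases, against 19122 for shared distal peaks. Exons and introns were not separated, since the gene table gives spans only.

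In all, 9043 genes held at least 1 of these peaks, and 504 held 10 or more. Sox5, a transcription factor of chondrocyte differentiation, held the most, with 83 on chromosome 6, beside 21 shared distal peaks. Dlgap2, a scaffold protein of synapses, held 66, and Sdk1, a cell adhesion protein, held 56 with 0 shared distal peaks. Cacna1c, a calcium channel subunit, held 56, and Dgki, a diacylglycerol kinase, held 53. These are long genes, at 464 to 974 kb. Summed normalised counts in Sdk1 were 387, 701, 368 and 420.2 with Kdm5c siRNA, against 481, 436, 330.5 and 475 with scramble siRNA. The arms overlapped, and the second Kdm5c siRNA library was the highest of the 8 in Sdk1. In Sox5 the sums were 928 ± 156 with Kdm5c siRNA and 842 ± 108 with scramble siRNA (SD, n = 4 each), and the arms overlapped there too.

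Chromosomes carried very different numbers. Chromosome 6 held 7375 day -2-only distal peaks, or 14.3%, at 50.4 per Mb of peak span, and chromosome 5 held 5764, at 38.8 per Mb. Chromosome 19 had 46.0 per Mb, chromosome 3 had 7.97 and chromosome X, with 316 peaks, had 1.89. Set against gene-named peaks on the same chromosome, there were 9.77 per gene-named peak on chromosome 6 and 6.88 on chromosome 5, against 2.201 on chromosome 11 and 1.02 on chromosome X. The ratio followed the median normalised count of the chromosome's gene-named peaks, which was 69.7 on chromosome 6, 74.5 on chromosome 5, 39.99 on chromosome 11 and 46.7 on chromosome X. Over 20 chromosomes Spearman's coefficient was 0.720 and Pearson's r was 0.769. For shared distal peaks per gene-named peak, Spearman's coefficient was 0.773. The points share the same 8 libraries, so these coefficients are a description.

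**Figure D2:**
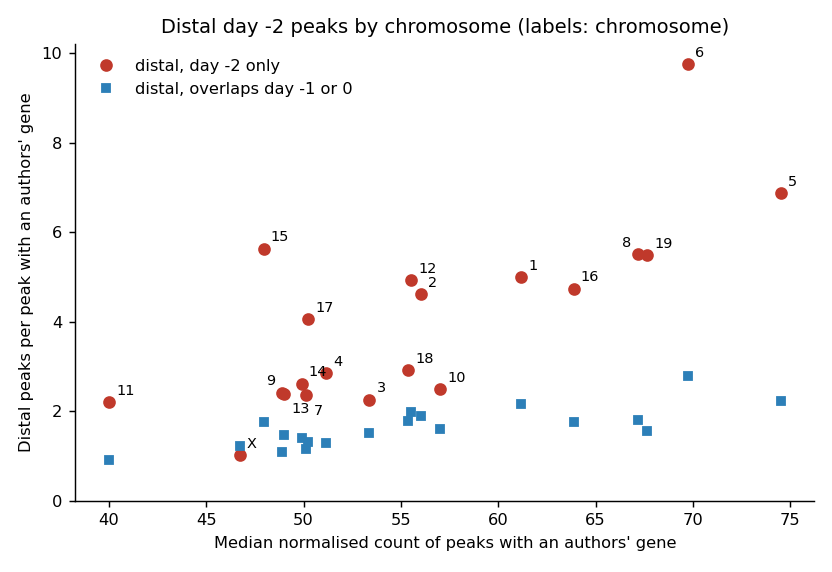
Each chromosome is a circle for day -2-only distal peaks (labelled) and a square for shared distal peaks. The vertical axis gives distal peaks per gene-named peak and the horizontal axis the median normalised count of gene-named peaks; chromosomes 6 and 5 stand highest, at 9.77 and 6.88.

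A single stretch of chromosome 10 held most of the day -2-only distal peaks with high counts. Of the 94 with a mean normalised count of at least 100, 84 (89.4%) lay between bases 107250552 and 118617691 of chromosome 10. The bounds are the start of the first and the end of the last of these 84. The higher counts of day -2-only peaks inside them are thus in part how the stretch was drawn. The 201 day -2-only peaks in this stretch had a median of 453 normalised counts per kb, against 54.8 for the 1179 on the rest of the chromosome. The 236 shared distal peaks there had 597 per kb, against 78.9 on the rest of the chromosome, and the 43 gene-named peaks 107 per kb, against 80.5. Counts per kb were higher in the stretch than on the rest of the chromosome in all 3 classes of peak. Sums over the 201 peaks were 18647 ± 2379 with Kdm5c siRNA and 16796 ± 1641 with scramble siRNA (SD, n = 4 each).

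Within the stretch, Cpm held 10 of the peaks, Mdm2 held 8, and Frs2 and Nup107 held 5 each. Cpm is a carboxypeptidase of the cell surface, Mdm2 the ubiquitin ligase that restrains p53, Frs2 an adaptor of FGF receptors and Nup107 a nuclear pore protein. The highest mean, 348, was at 10:117540659-117541204, between genes. Its values were 361, 403, 312 and 291 with Kdm5c siRNA, against 371, 293, 350.2 and 403 with scramble siRNA. The arms overlapped, with a log2 fold change of -0.05 (SE 0.13). The densest was a peak of 132 bases in Mdm2, 10:117692280-117692412, at 1424 normalised counts per kb. It had 156, 126, 223 and 205 with Kdm5c siRNA, against 238, 164, 191 and 200.3 with scramble siRNA, again overlapping. A second peak in Mdm2, 10:117704348-117704789, had 308 ± 51.3 with Kdm5c siRNA and 247 ± 19.1 with scramble siRNA (SD, n = 4 each). Its log2 fold change was 0.31 (SE 0.13, edgeR adjusted p = 0.98). Outside chromosome 10, 6 of the 94 lay on the unplaced sequence JH584304.1, 3 on chromosome 2 between 77890824 and 77982109, and 1 on chromosome 11.

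The widest of these peaks were sparse. The widest, 3529 bases inside the kinesin gene Kif27 (13:58346404-58349933), averaged 6.15 ± 3.06 normalised counts with Kdm5c siRNA and 6.55 ± 3.30 with scramble siRNA (SD, n = 4 each). The next, 3278 bases at 5:22444594-22447872, averaged 4.93 ± 3.74 with Kdm5c siRNA and 3.42 ± 2.79 with scramble siRNA. Stam2, a sorting protein of endosomes, held one of 2509 bases with 2.05 counts per kb. None of the 5 widest passed the filter on low counts.

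The library Kdm5c siRNA replicate 2 stood apart in these peaks, and some, not all, of the counts, medians and shares below are also given without it. It had the most nuclear counts, 3345583, and the median day -2-only distal peak held 16 raw counts in it. The other Kdm5c siRNA libraries had medians of 7, 8 and 7, and the scramble siRNA libraries 7, 6, 7 and 11. After scaling for depth, it was the highest of the 8 libraries at 33.5% of the day -2-only distal peaks. The others were highest at 6.74% to 11.6% of them. At shared distal peaks it was highest in 11.2%. At gene-named peaks it was highest in 20.2%, against 7.77% to 14.5% for the other libraries. Scramble siRNA replicate 4, the next deepest with 2983369 nuclear counts, was highest at 10.4% of the day -2-only peaks.

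**Figure D3:**
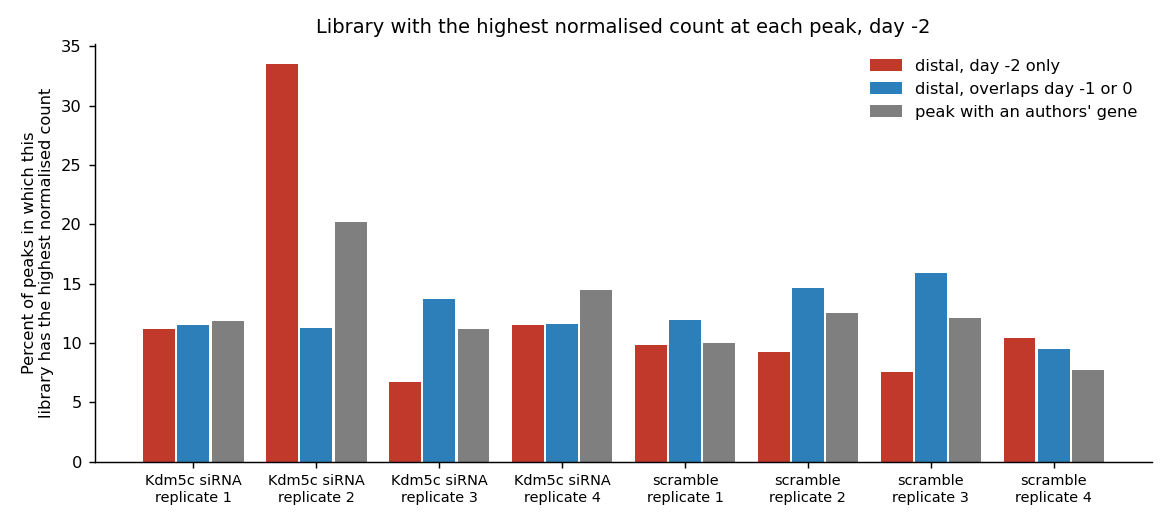
Bars show, for each of the 8 day -2 libraries, the percent of day -2-only distal, shared distal and gene-named peaks at which that library has the highest normalised count. Kdm5c siRNA replicate 2 reaches 33.5% of the day -2-only peaks, 11.2% of the shared ones and 20.2% of the gene-named ones.

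There were 1874 day -2-only distal peaks in which this library held at least 33.3% of the normalised counts of all 8. The same count in the other libraries ran from 133 in Kdm5c siRNA replicate 3 to 934 in Kdm5c siRNA replicate 1. The 1874 had a median width of 128 bases, and 63 of them passed the filter on low counts. Across day -2-only distal peaks the Spearman correlation of Kdm5c siRNA replicate 2 with the other libraries was 0.208 to 0.260. Among those others it was 0.324 to 0.443. The values that follow are given in the same order. Across shared distal peaks it was 0.821 to 0.854, against 0.852 to 0.899. Across gene-named peaks it was 0.934 to 0.946, against 0.941 to 0.958. The sources used here do not say whether peaks were called per library or on pooled libraries, and the part of that step was not tested.

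The arms overlapped in the share of nuclear counts that lay in day -2-only distal peaks. The share was 23.9%, 27.9%, 20.6% and 22.8% in the Kdm5c siRNA libraries, against 23.4%, 21.8%, 20.6% and 23.7% in the scramble siRNA libraries. Kdm5c siRNA replicate 2 was the highest. The mean was 23.8% ± 3.07 with Kdm5c siRNA and 22.4% ± 1.44 with scramble siRNA (SD, n = 4 each), a difference of 1.41 percentage points. Without Kdm5c siRNA replicate 2 the difference was 0.043 percentage points. Both differences were below the pooled SD of 2.40, and without Kdm5c siRNA replicate 3 the difference was 2.49. As a share of all counts in peaks, mitochondrial ones included, the mean was 8.70% ± 2.28 with Kdm5c siRNA and 5.92% ± 0.729 with scramble siRNA (SD, n = 4 each). That difference of 2.78 percentage points exceeded its pooled SD of 1.69, and it was 2.05 without Kdm5c siRNA replicate 2. Mitochondrial peaks took 63.8% ± 6.26 of all counts with Kdm5c siRNA and 73.5% ± 2.85 with scramble siRNA (SD, n = 4 each), and the part of this gap in the share of all counts was not tested.

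**Figure D4:**
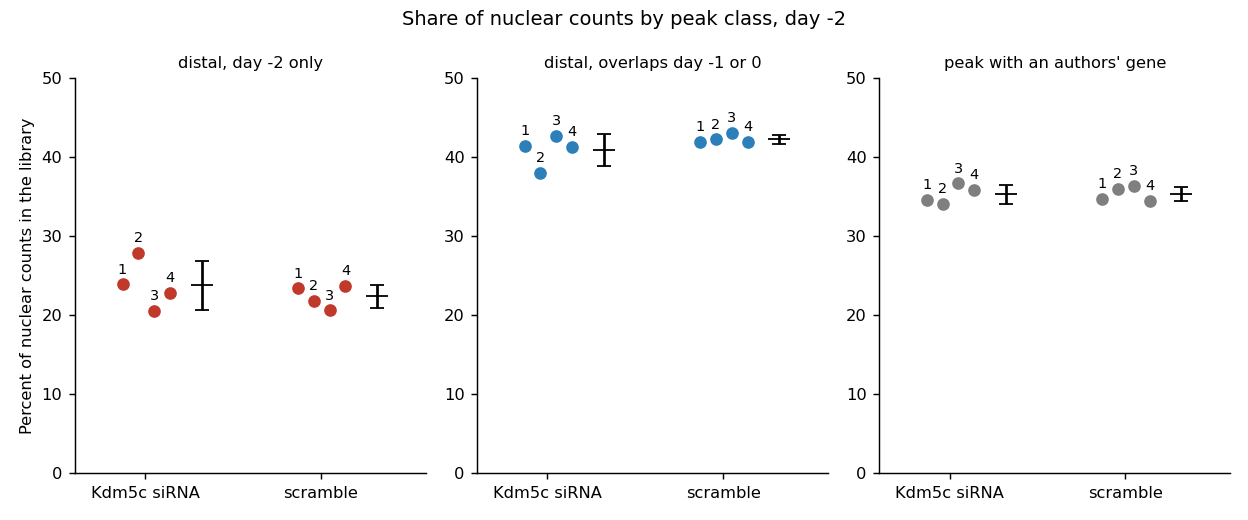
Points give the percent of nuclear counts in day -2-only distal, shared distal and gene-named peaks for each library of day -2, numbered by replicate, with the mean and SD of each arm as bars. The arms overlap in all 3 classes, and Kdm5c siRNA replicate 2 is the highest point for day -2-only distal peaks at 27.9%.

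No day -2-only distal peak was called different between the arms. The quasi-likelihood F test of edgeR, with Benjamini-Hochberg adjustment over all 49455 day -2 peaks that passed the filter on low counts, called 0 of the 19881 that passed at an adjusted p under 0.05. The background was 0.00404% of all tested peaks. Without the filter, 0 of the 51461 were called, with a background of 0.00357%, and DESeq2 called 0 of them, with a background of 0%. Only 38.6% of the day -2-only distal peaks passed the filter, so those that passed are the more abundant ones.

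Small unadjusted p-values were about as frequent as among all peaks. With edgeR, 851 of the 19881 (4.28%) had an unadjusted p under 0.05, against 4.63% of all tested peaks. Without the filter it was 2023 of 51461 (3.93%), against 4.02%, and with DESeq2 2047 (3.98%), against 3.58%. Leaving out Kdm5c siRNA replicate 3 gave 1665 of 24773 (6.72%, against 7.45%), and leaving out scramble siRNA replicate 1 gave 1354 of 27356 (4.95%, against 4.87%). The arms did not overlap at 529 of the 19881, or 2.66%, against 2.87% of all tested peaks. By direction, 543 of the 851 had higher counts with Kdm5c siRNA (2.73% of those tested, against 2.32% of all peaks), and 308 had lower counts (1.549%, against 2.31%). This lean rested on 1 library. Without Kdm5c siRNA replicate 2, 437 had higher counts (2.14%, against 2.13%) and 455 had lower counts (2.23%, against 2.27%).

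The median log2 fold change of the day -2-only distal peaks was 0.05, against 2.6e-05 over all tested peaks and -0.05 over shared distal peaks. Without Kdm5c siRNA replicate 2 it was -0.02. Over all 51461 without the filter it was 0.11, against 0.02 over all 84019 peaks. Scaling by total counts, mitochondrial reads included, moved the median of all tested peaks by 0.44 and that of the day -2-only distal peaks to 0.50. Under this scaling 233 of them (1.17% of those tested) were called, all with higher counts with Kdm5c siRNA, against a background of 2.47%. Small p-values came to 16.7% of those tested, against 25.6% of all tested peaks. In that fit 3313 of the 3321 (99.8%) were on the higher side, against 63.8% under TMM. Over all tested peaks 99.9% of small p-values were on that side, against 50.1% under TMM. The share of mitochondrial counts moves with that scaling, and its part was not tested.

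Among the peaks with the smallest p-values, those with higher counts with Kdm5c siRNA were led by one beside C2cd4d, at 3:94363450-94363885. It had 24.8, 47.5, 24.5 and 34.7 normalised counts with Kdm5c siRNA, against 6.33, 5.25, 15.8 and 19.3 with scramble siRNA. The arms did not overlap. The log2 fold change was 1.42 (SE 0.36), the edgeR adjusted p was 0.84 and the exact two-sided permutation p was 0.0286, the smallest that 4 against 4 libraries allow. All other peaks named from here on had an edgeR adjusted p of 0.98 to 1.00, so none passed.

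A peak in Col1a1, the gene of the alpha-1 chain of type I collagen, at 11:94949183-94949526, had 37.2, 24.1, 24.5 and 65.9 with Kdm5c siRNA, against 19.0, 11.8, 9.865 and 22.5 with scramble siRNA. All 4 Kdm5c siRNA libraries were above all scramble siRNA libraries, with a log2 fold change of 1.20 (SE 0.33), or 0.80 without Kdm5c siRNA replicate 4. A second peak in Col1a1, 11:94942430-94942839, had 36.5 ± 7.91 with Kdm5c siRNA and 22.7 ± 4.27 with scramble siRNA (SD, n = 4 each), with overlapping arms. The gene-named Col1a1 peak had 26.5 ± 6.07 with Kdm5c siRNA and 14.7 ± 2.96 with scramble siRNA (SD, n = 4 each).

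A peak in Tmem184a, a transmembrane protein gene, at 5:139812866-139813088, had 29.7, 37.0, 18.8 and 25.1 with Kdm5c siRNA, against 12.7, 9.18, 5.92 and 11.3 with scramble siRNA. Its log2 fold change was 1.5 (SE 0.41), and the arms did not overlap. Srebf2 encodes a transcription factor of cholesterol synthesis. A peak of 109 bases inside it, 15:82204152-82204261, had 14.9, 23.4, 17.2 and 14.4 with Kdm5c siRNA, against 8.86, 2.62, 3.95 and 3.22 with scramble siRNA. The arms did not overlap there either, with a log2 fold change of 1.92 (SE 0.58). Without Kdm5c siRNA replicate 2 the log2 fold change was 1.18 beside C2cd4d, 1.37 at the first Col1a1 peak, 1.31 in Tmem184a and 1.74 in Srebf2. Within 10 kb of Eps8, an actin regulator, and of Ptpro, a receptor phosphatase, 6:137471326-137471522 had 20.4 ± 5.05 with Kdm5c siRNA and 5.60 ± 3.35 with scramble siRNA (SD, n = 4 each). The other 5 in this direction lay over 10 kb from coding genes, with log2 fold changes of 0.85 at 17:45798653-45799585 to 1.99 at 6:54904543-54904744. The peak 6:91291431-91291671 had overlapping arms. These peaks were taken for their small p, so separate arms among them are no further result.

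In the other direction the smallest p was at a peak in Fyco1, a gene of autophagosome transport, at 9:123815803-123816298. It had 22.3, 12.1, 40.9 and 14.4 with Kdm5c siRNA, against 43.0, 60.3, 42.4 and 37.0 with scramble siRNA. The arms overlapped, through Kdm5c siRNA replicate 3, and the log2 fold change was -0.99 (SE 0.28). Without that library it was -1.53 with an edgeR adjusted p of 0.016, the 1 call that leaving out any single library gave among the day -2-only distal peaks, where the background was 0.02% of all tested peaks.

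Near Fgd5, an exchange factor for Cdc42, 6:92077397-92077726 had 9.91, 13.6, 4.09 and 13.2 with Kdm5c siRNA, against 22.8, 34.1, 13.8 and 36.2 with scramble siRNA. The arms were apart by a small margin, with a log2 fold change of -1.40 (SE 0.42). Near Cpe, a carboxypeptidase of prohormone processing, 8:64586494-64586750 had 18.7 ± 8.498 with Kdm5c siRNA and 37.2 ± 9.88 with scramble siRNA (SD, n = 4 each). Near Pdp1, a phosphatase that activates pyruvate dehydrogenase, 4:11972534-11972832 had 9.13 ± 4.57 with Kdm5c siRNA and 24.8 ± 9.26 with scramble siRNA (SD, n = 4 each). The arms overlapped at both, with log2 fold changes of -0.99 (SE 0.31) near Cpe and -1.37 (SE 0.44) near Pdp1. Within 10 kb of Arhgap17 and of Lcmt1, a methyltransferase of protein phosphatase 2A, 7:123371647-123371955 had 19.6 ± 6.005 with Kdm5c siRNA and 37.98 ± 8.48 with scramble siRNA (SD, n = 4 each). The arms did not overlap there. The other 5 lay away from genes with known roles, with log2 fold changes of -0.91 at 12:68092103-68092527 to -1.71 at 2:166274966-166275180.

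**Figure D5:**
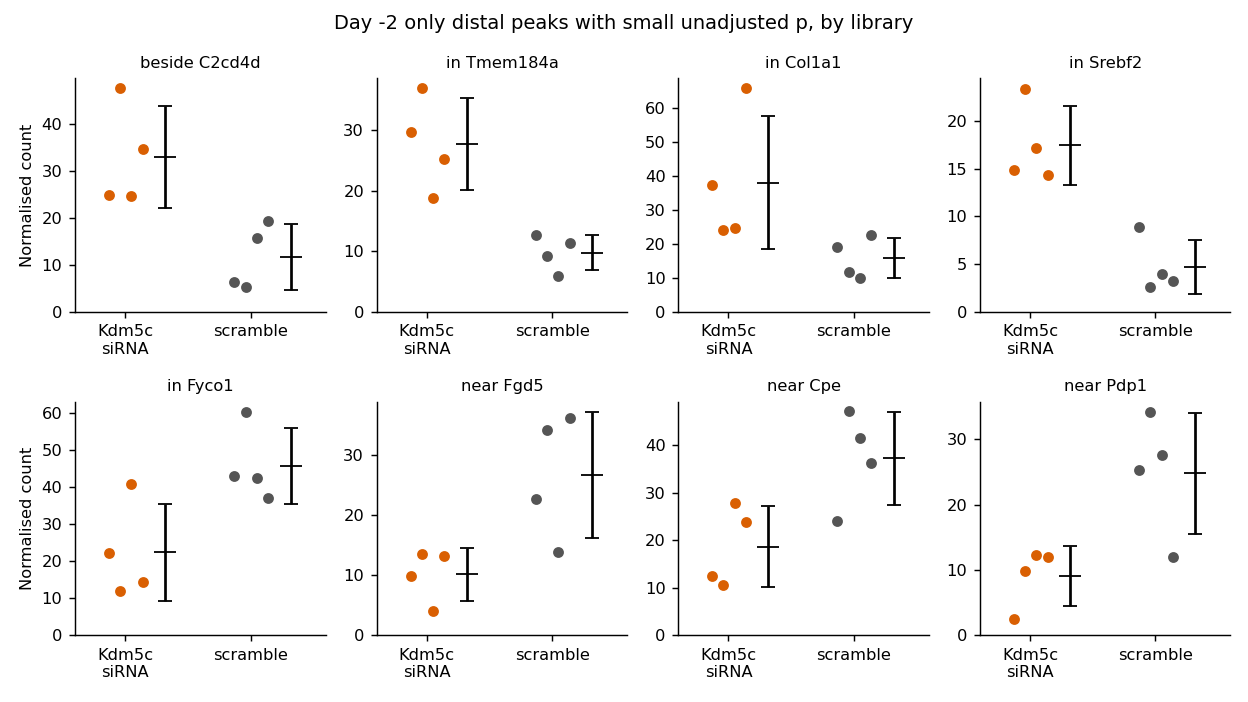
Each plot gives the normalised count of 1 day -2-only distal peak in the 4 Kdm5c siRNA and 4 scramble siRNA libraries of day -2, with the mean and SD of each arm as bars. The upper row holds peaks with higher counts with Kdm5c siRNA and the lower row peaks with lower counts; the arms overlap at Fyco1, Cpe and Pdp1.

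Gene lists for adipogenesis and its surroundings had 0 called peaks among the day -2-only distal peaks inside or within 10 kb of their genes. The counts of small p-values, meaning an unadjusted p under 0.05, stand against 4.63% of all tested peaks, 2.32% higher and 2.31% lower with Kdm5c siRNA, and the medians against 2.6e-05 over all tested peaks. Without Kdm5c siRNA replicate 2, an alternative chosen after seeing the data, the median of all tested peaks was -0.0073. Of 23 adipogenic factors, 18 had such peaks, 118 in all, of which 40 were tested, with a median log2 fold change of 0.20 (0.11 without Kdm5c siRNA replicate 2) and 1 small p. That was a peak of 110 bases in Zfp467, a zinc finger gene that favours adipogenesis, at 6:48439777-48439887, with 16.3 ± 2.68 with Kdm5c siRNA and 7.79 ± 1.75 with scramble siRNA (SD, n = 4 each). The most abundant peak of the list, in the transcription factor gene Klf4 at 4:55530158-55530550, had 31.0, 34.7, 13.1 and 37.1 with Kdm5c siRNA, against 62.0, 40.7, 24.7 and 40.2 with scramble siRNA. Those arms overlapped, with a log2 fold change of -0.53 (SE 0.28).

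Factors that hold preadipocytes back from differentiation also had 118 peaks, of which 60 were tested, with a median of -0.0064 (-0.03 without Kdm5c siRNA replicate 2) and 1 small p in each direction. A peak in Runx1, a transcription factor, at 16:92679739-92680046, had 15.1 ± 6.96 with Kdm5c siRNA and 6.72 ± 7.46 with scramble siRNA (SD, n = 4 each). A peak in Tcf7l2, a factor of Wnt signalling, at 19:55767284-55767560, had 18.7 ± 4.77 with Kdm5c siRNA and 29.5 ± 8.23 with scramble siRNA (SD, n = 4 each). The arms overlapped at both. The Runx1 log2 fold change was 1.23 (SE 0.58), or 0.81 without Kdm5c siRNA replicate 3 and 2.27 without scramble siRNA replicate 1. Lipid genes of the adipocyte had 57 peaks, 26 tested, with a median of 0.04 (0.01 without Kdm5c siRNA replicate 2) and 1 small p, at 2:26586690-26586878 inside Egfl7 and within 10 kb of the acyltransferase gene Agpat2. Near Plin2, which coats lipid droplets, 4:86674198-86674733 had 47.0 ± 9.998 with Kdm5c siRNA and 34.2 ± 12.6 with scramble siRNA (SD, n = 4 each).

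Genes of the extracellular matrix had 111 peaks, of which 55 were tested, with a median of 0.14 (0.12 without Kdm5c siRNA replicate 2). In all 4 (7.27%) had a small p, or 3 without that library. Of the 4, 3 had higher counts with Kdm5c siRNA, both Col1a1 peaks above and 1 beside the crosslinking enzyme gene Loxl1 at 9:58312481-58312599. The Loxl1 peak had 17.3, 31.7, 9.82 and 10.8 with Kdm5c siRNA, against 8.86, 6.56, 9.865 and 8.04 with scramble siRNA. Its arms overlapped, and its log2 fold change was 1.07 (SE 0.51), or 0.57 without Kdm5c siRNA replicate 2. In the other direction, a peak in the membrane metalloprotease gene Mmp14, 14:54435243-54435427, had 15.7 ± 4.25 with Kdm5c siRNA and 27.9 ± 8.44 with scramble siRNA (SD, n = 4 each). Genes of the cytoskeleton and adhesion had 77 peaks, 41 tested, with a median of -0.04 (-0.03 without Kdm5c siRNA replicate 2) and 3 small p-values (7.32%). In the actin crosslinker gene Actn4, the log2 fold changes were 0.78 (SE 0.32) for the peak 7:28945494-28946124 and -1.20 (SE 0.46) for 7:28952867-28953047. A peak in Cald1, which encodes the actin-binding protein caldesmon, had 1.43 (SE 0.56).

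AP-1 genes themselves had 21 peaks, 13 tested, with a median of 0.32 and 2 small p-values (15.4%). The median was 0.07, with 1 small p, without Kdm5c siRNA replicate 2. The more abundant was near Junb at 8:84985619-84985977, with 59.5, 60.3, 67.1 and 114 with Kdm5c siRNA, against 56.9, 60.3, 59.2 and 49.1 with scramble siRNA. The arms overlapped, and the fourth Kdm5c siRNA library was far above the others. The log2 fold change was 0.41 (SE 0.20), or 0.13 without that library. The second was beside Ccdc85b, within 10 kb of Fosl1. The targets and partners of YAP and TEAD had 42 peaks, 24 tested, with a median of -0.09 (-0.15 without Kdm5c siRNA replicate 2) and 0 small p-values. Cell cycle genes had 41 peaks, 12 tested, with a median of 0.10 (-0.09 without Kdm5c siRNA replicate 2) and 1 small p. Near the kinase gene Cdk6, 5:3538724-3539063 had -0.72 (SE 0.31), or -0.48 without Kdm5c siRNA replicate 2, and the most abundant, in cyclin gene Ccnd2, had 0.26 (SE 0.20).

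Genes that respond to hormones and cAMP had 59 peaks, 26 tested, with a median of -0.10 (-0.19 without Kdm5c siRNA replicate 2) and 2 small p-values (7.69%), both lower. In the receptor gene Igf1r, 7:68048682-68048869 had 16.1, 15.8, 13.9 and 8.38 with Kdm5c siRNA, against 24.0, 23.6, 26.6 and 24.9 with scramble siRNA. The arms did not overlap, with a log2 fold change of -0.86 (SE 0.39). In Fkbp5, a glucocorticoid-responsive chaperone gene, 17:28419619-28420031 had -0.61 (SE 0.31) with overlapping arms. That value was -0.35 without scramble siRNA replicate 1 and -0.96 without Kdm5c siRNA replicate 3. Growth factor signalling genes had 78 peaks, 43 tested, with a median of -0.03 (-0.12 without Kdm5c siRNA replicate 2) and 1 small p. A peak in the receptor gene Acvr1, 2:58484449-58484596, had 18.6 ± 4.26 with Kdm5c siRNA and 9.26 ± 2.95 with scramble siRNA (SD, n = 4 each). The most abundant peak of that list, in the receptor gene Pdgfrb, had -0.11 (SE 0.23).

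Histone demethylase genes, the family of Kdm5c, had 41 peaks, 20 tested, with a median of 0.11 and 3 small p-values (15.0%), all with higher counts with Kdm5c siRNA. That median was 0.03, with 2 small p-values, without Kdm5c siRNA replicate 2. In Kdm2b, 5:122921905-122922072 had 21.1, 24.1, 10.6 and 10.8 with Kdm5c siRNA, against 3.795, 1.31, 3.95 and 8.04 with scramble siRNA. A second peak in Kdm2b, 5:122987191-122987295, had 14.8 ± 6.47 with Kdm5c siRNA and 5.51 ± 2.62 with scramble siRNA (SD, n = 4 each). In Kdm2a, 19:4332870-4333169 had 38.4, 16.6, 27.0 and 20.4 with Kdm5c siRNA, against 13.9, 13.1, 14.8 and 8.04 with scramble siRNA. The arms were apart at the first Kdm2b peak and at Kdm2a, with log2 fold changes of 1.86 (SE 0.59) and 1.03 (SE 0.40), and overlapped at the second Kdm2b peak, with 1.46 (SE 0.59). At the relative Kdm5b, 1:134561000-134561578 had 33.3 ± 8.70 with Kdm5c siRNA and 33.2 ± 9.41 with scramble siRNA (SD, n = 4 each).

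Markers of fibroblasts and of other cell types also had day -2-only distal peaks. They numbered 43 for preadipocytes and fibroblasts, 15 for macrophages, 47 for endothelium, 24 for epithelium, 21 for neurons and 13 for muscle. Of those tested, 2 of 30, 1 of 9, 2 of 19, 1 of 8, 0 of 4 and 0 of 1 had an unadjusted p under 0.05, and 0 were called. In Cdh5, a cadherin gene of endothelium, 8:104140786-104140995 had -1.29 (SE 0.50), and in Vwf, the gene of von Willebrand factor, 6:125599181-125599309 had 0.95 (SE 0.46). In the macrophage receptor gene Cx3cr1, 9:120065647-120065995 had -1.14 (SE 0.54). The part of these cell types in the results was not tested.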

How the data were processed

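The authors deposited whole-number counts of reads per peak for each day, with a separate peak set per day, and a table of normalised signal for those peaks that carry a gene. The signal table was used here only to tell which peaks carry one. The submitters' processing notes list MACS2 2.1.1, Bowtie2 2.2.9, HTSeq 0.9.1, cutadapt 2.3 and DESeq2 1.24.0, and the GRCm38 build. The sources used here do not give their settings, the pooling of libraries for peak calling, the transposase offset or the treatment of duplicate and mitochondrial reads. All of these bear on which weak peaks exist.

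Overlap between days was found from the coordinates, with starts taken as counted from 0. The 8 day -2 libraries were tested in 1 fit over the whole day -2 table by edgeR 4.0.16 (quasi-likelihood F test, R 4.3.3) with TMM, filterByExpr and no covariate. Adjusted p-values are Benjamini-Hochberg values over all tested peaks, and each standard error comes from the F statistic. The code was tested on simulated data. DESeq2 1.42.0, other scalings, no filter, a replicate block and leaving out each library were alternatives. Exact permutation tests used log2(normalised count + 1) over 70 splits. Genes came from RefSeq spans and promoter windows (GRCm38.p6), which give no exons. The table of windows does not cover chromosome 18.

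The peaks and gene lists were chosen with earlier results of these data known, so nothing here is independent support for them. Peaks were named by rule: the 10 smallest p-values in each direction, the 10 highest means, the 5 highest per kb, the 5 widest, the 5 genes holding most, the most abundant and every p under 0.05 per list where the mean was at least 10, and 3 on either side of the overlap rule. Not every peak the rule takes is printed. Gene-named peaks of fibroblast and other markers served as a check of the cell type.

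Same-numbered libraries of the arms were not treated as pairs, since their deviations from the arm means correlated at -0.04 to 0.15 and only 1 of 4 pairs was over 0.1.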

Additional observations from a re-analysis of the deposited data

Results flagged for a closer look

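Of 60 groups of 4 libraries examined for a library far from the other three, 3 stood out, where chance gives about 1 in 20. The median raw count of a day -2-only distal peak was 16 in Kdm5c siRNA replicate 2, and the next library of that arm had 8. At the intergenic peak 12:99025093-99025316, scramble siRNA replicate 2 had 32.8 normalised counts and the next scramble siRNA library 20.9. The Kdm5c siRNA libraries had 6.20, 3.02, 12.3 and 10.8 there. At the intergenic peak 12:68092103-68092527, Kdm5c siRNA replicate 3 had 17.2 normalised counts and the next lowest of its arm 21.6, below all scramble siRNA libraries, which had 32.2 to 51.3.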

How the results depend on the processing

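Low counts limit these peaks: the median held 8.75 raw counts per library, and 63.3% had a mean under 10. The count of called day -2-only distal peaks was 0 with edgeR under TMM, RLE size factors, no filter, without mitochondrial peaks and under the replicate block, and 0 with DESeq2. It was 233 under total-count scaling (1.17% of those tested, against 2.47% of all tested peaks) and 0 to 1 when a library was left out. Peaks at an unadjusted p under 0.05 numbered 851 in the edgeR test, 2047 with DESeq2, 2023 without the filter, 3321 under total-count scaling and 886 to 1665 with a library left out. For the first to the fourth of these settings the shares of those tested were 4.28%, 3.98%, 3.93% and 16.7%. Over all tested peaks they were 4.63%, 3.58%, 4.02% and 25.6%. The 886 without Kdm5c siRNA replicate 1 were 3.64% of those tested, against 4.08% of all tested peaks. The 1665 without Kdm5c siRNA replicate 3 were 6.72%, against 7.45%. Day -2-only distal peaks with a small p and higher counts with Kdm5c siRNA numbered 543 in the edgeR test. With DESeq2 they numbered 1272 and without the filter 1199. These made up 63.8%, 62.1% and 59.3% of small p-values, against 50.1%, 52.6% and 45.7% over all tested peaks. Under total-count scaling such peaks numbered 3313, where 99.9% of small p-values over all tested peaks were on that side. With a library left out they numbered 437 to 1206. The 437, without Kdm5c siRNA replicate 2, were 49.0% of small p-values, against 48.4% over all tested peaks. The 1206, without Kdm5c siRNA replicate 3, were 72.4%, against 48.4%. More day -2-only distal peaks were tested in these settings. The number was 19881 in the edgeR test, 51461 without the filter and with DESeq2, and 20381 to 29664 with a library left out. Under total-count scaling it was 19881 again. The cause of the shifts was not tested. The median log2 fold change of 0.05 became 0.50 under total-count scaling and -0.02 to 0.12 with a library left out, with the sign turned only without Kdm5c siRNA replicate 2. Over all tested peaks, total-count scaling shifted the median by 0.44. The difference in the share of nuclear counts ranged from 0.043 to 2.49 percentage points with a library left out. With a reciprocal overlap of 50% as the rule the peaks numbered 57239, with 500 bases between peaks 47825, with no gene end within 1 kb 48952, and with starts counted from 1, an alternative chosen after seeing the data, 51454. Leaving out the chromosome 10 stretch, also chosen later, left the median at 0.05.

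Fitting the replicate number as a block gave 846 unadjusted p-values under 0.05 (4.26% of those tested, against 4.88% of all tested peaks). Of these, 523 (61.8%, against 48.0% over all tested peaks) had higher counts with Kdm5c siRNA. That fit gave 0 calls and a median of 0.04. The numbers are not known to pair the libraries, and 2 of 4 Kdm5c siRNA libraries correlated best with their own number. Over 42 named peaks and all alternatives, 564 values kept their direction and their side of the threshold, 18 passed it and 0 reversed. These 42 were taken for a small unadjusted p, so a kept direction among them is no further result. Peaks named for other reasons could reverse. The log2 fold change of the Kdm5b peak went from 0.02 to -0.16 without Kdm5c siRNA replicate 2.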
